A study of Mus musculus with 12 samples.

Results

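The subunits of the Mediator complex, Med1 among them, were followed on 12 one-colour Agilent arrays of resting B (RB) cells. Mediator is the large protein assembly that joins DNA-bound transcription factors to RNA polymerase II. Its head, middle and tail modules are held together by the Med14 scaffold, and a detachable kinase module (Cdk8 or Cdk19, cyclin C, Med12 and Med13) can block the contact with the polymerase. Med1 is the subunit through which nuclear receptors and several lineage factors, Gata factors included, are known to bind the complex. In B cells, as in other cells, newly induced genes depend on Mediator for transcription.

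Members were the non-control probes whose gene name on the array began with Med and a digit, or was Ccnc, Cdk8 or Cdk19. The rule found 31 of 50090 gene names, 19 with 1 probe and 12 with more, and 47 of 61307 probes. The members were thus selected by name, but the complex was picked out on measured values, those of Med1 in the anti-CD86 by Pam2CSK4 contrast. For a test, a probe had to be scored as well above background in both replicates of some condition. This left 42 member probes of 30 genes, which were tested among 31599 probes in all. The 5 probes left untested were all 3 of Med12l (a paralog of Med12), 1 of Med28 and 1 of Med17, and Med12l was therefore the only member gene with no tested probe. Of the 47, 40 were well above background on all 12 arrays and 4 on none, and no member probe was saturated. No probe carried the name Cdk19. The array also filed 9 probes of 7 Mediator genes under older symbols, which the rule did not take, and they were read beside the members: Pparbp (2 probes) is Med1, Crsp3 (2 probes) is Med23, Crsp8 is Med27, Cdc2l6 is Cdk19, Surf5 is Med22, Thrap2 is Med13l and Trfp is Med20.

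The RB cells came from spleens of female BALB/c mice, aged 6 weeks, by negative selection on CD43, and every group was cultured for 4 h. The groups were unstimulated cells, cells given the TLR-2 ligand Pam2CSK4, cells given anti-CD86 antibody, cells given both (TLR2.CD86), cells given anti-CD40 antibody, and cells given anti-CD40 with Pam2CSK4, with 2 arrays each. Both unstimulated and both anti-CD40+Pam2CSK4 arrays lay on the same slide as replicate 1 of the other groups, and replicate 2 of Pam2CSK4, anti-CD86, TLR2.CD86 and anti-CD40 lay on a second slide. The study describes the array data as representative of biological replicates, and since the labels tie no sample to an animal or culture, p-values measure the spread between these samples. On slide 1 alone, 4 conditions had 1 array each, so tests on that slide take their spread from the unstimulated and anti-CD40+Pam2CSK4 pairs (2 residual degrees of freedom) and assume that the lone arrays vary like them. All values below are log2 processed signals minus the 75th percentile of their array, and a difference is a difference of such values. Between 46.6% and 60.6% of the spots on an array were well above background. The B cell markers Cd79a and Pax5 were well above background in every condition, and so were all 9 myeloid markers on the array, whose log2 summed level was 8.97 to 9.06 on the unstimulated arrays and 8.47 to 8.96 on the others. From 8 to 9 of 9 T cell markers and from 4 to 5 of 5 NK cell markers were so too, depending on the condition. Their summed levels were higher on the unstimulated arrays (T cell 5.15 to 5.17, NK 2.78 to 2.82) than on any other, and on the TLR2.CD86 arrays they were 4.49 to 4.82 and 2.27 to 2.34. Skeletal muscle markers, of which 1 to 3 of 5 were well above background, were at 0.03 to 0.06 on the unstimulated arrays, 0.19 to 0.63 after Pam2CSK4, anti-CD86 and TLR2.CD86, and 0.91 to 1.14 in both anti-CD40 groups. The part of such cells in the results was not tested. In a bulk sample, fewer cells of a type and less RNA per cell cannot be told apart.

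Med1 had 3 probes on the array, and they are shown because they did not give the same answer. Each is a 60-base oligonucleotide, written 5′ to 3′ in lower case, with no capitals since no position was singled out. The pairs of Cdk8 and Med12 follow for the same reason. The pair of Med20 is shown as a contrast, since its 2 probes overlap, and there the capitals mark the 43 bases they share.
Med1, filed as Med1 (52_P301166): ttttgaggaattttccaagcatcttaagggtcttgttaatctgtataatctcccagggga
Med1, filed as Pparbp (51_P324082): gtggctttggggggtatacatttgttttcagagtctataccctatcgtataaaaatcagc
Med1, filed as Pparbp (52_P176300): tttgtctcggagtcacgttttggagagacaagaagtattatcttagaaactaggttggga
Cdk8 (51_P250963): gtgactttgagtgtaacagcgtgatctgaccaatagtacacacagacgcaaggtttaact
Cdk8 (52_P504068): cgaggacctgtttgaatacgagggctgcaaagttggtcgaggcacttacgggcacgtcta
Med12 (51_P435947): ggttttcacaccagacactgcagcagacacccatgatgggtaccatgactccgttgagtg
Med12 (52_P197666): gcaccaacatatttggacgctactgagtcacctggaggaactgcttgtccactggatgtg
Med20, filed as Trfp (51_P404067): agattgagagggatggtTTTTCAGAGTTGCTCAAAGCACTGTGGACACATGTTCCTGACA
Med20, filed as Med20 (52_P402319): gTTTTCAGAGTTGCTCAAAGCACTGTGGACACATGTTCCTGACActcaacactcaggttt

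The probe filed as Med1 was annotated in the scanner files to 3 RefSeq transcripts of the gene. The Pparbp probe 51_P324082 was annotated to 2 of these transcripts and 52_P176300 to the remaining 1. No other probe on the array shared a run of 20 bases, on either strand, with any of the 3. RefSeq also gives Med1 as an older symbol of Mbd4, but the description in the files for 52_P301166 names the peroxisome proliferator activated receptor binding protein, which is Med1. The files listed none of the 56 member and older-symbol probes with a genome position, and their place within the transcripts was not analysed here. The GC content of the 47 member probes ran from 35.0% to 55.0%, with a median of 41.7%, beside a median of 43.3% over all probes.

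Med1, by the probe that carries its current name, moved more than any other member. It was singled out with its values known, so they are given as a description, with no test. Its log2 levels were -0.46 and -0.46 on the unstimulated arrays, -0.07 and -0.24 after Pam2CSK4, -1.66 and -1.65 after anti-CD86, and 1.02 and 0.88 after TLR2.CD86. After anti-CD40 they were -1.06 and -1.12, and after anti-CD40+Pam2CSK4 they were 2.03 and 1.96. No 2 conditions overlapped, and the order from low to high was anti-CD86, anti-CD40, unstimulated, Pam2CSK4, TLR2.CD86 and anti-CD40+Pam2CSK4. The highest condition stood 12.5-fold above the lowest. With 2 arrays a condition and a probe singled out on its values, the lack of overlap is a description and no evidence of the order. How many of all probes separate in this way was not counted.

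The 2 single stimuli and their combination did not add up on this probe. Against unstimulated cells, Pam2CSK4 differed by 0.31 and anti-CD86 by -1.19, which sum to -0.89, whereas TLR2.CD86 differed by 1.41. The departure from additivity, that is, the effect of Pam2CSK4 in the presence of anti-CD86 minus its effect alone, was 2.30 on the log2 scale. It was 2.25 when slide was a term of the fit (below, the slide block) and 2.28 on slide 1 alone. Adding Pam2CSK4 to anti-CD40 went the same way on this probe: anti-CD40 alone differed from unstimulated by -0.63 and anti-CD40+Pam2CSK4 by 2.46, so that the combination lay 3.08 above anti-CD40.

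The Pparbp probes of Med1 did not follow. Probe 51_P324082 read 3.54 and 3.61 on the unstimulated arrays, 3.78 and 3.37 after Pam2CSK4, 3.56 and 3.42 after anti-CD86, 3.81 and 3.42 after TLR2.CD86, 3.78 and 3.46 after anti-CD40, and 4.11 and 4.19 after anti-CD40+Pam2CSK4. Its first 5 conditions overlapped and the last stood above them. The rise to anti-CD40+Pam2CSK4, 0.57 ± 0.19 (SE), missed the threshold (limma, adjusted p = 0.0776) and passed it with the slide block (0.57 ± 0.08, limma, adjusted p = 0.00169). Its departure from additivity was 0.12 ± 0.27 (limma, adjusted p = 0.976).

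The other Pparbp probe of Med1, 52_P176300, moved the other way after TLR2.CD86. It read 3.72 and 3.60 on the unstimulated arrays, 3.30 and 3.17 after Pam2CSK4, 3.21 and 3.23 after anti-CD86, and 3.08 and 2.94 after TLR2.CD86. After anti-CD40 it read 3.85 and 3.62, and after anti-CD40+Pam2CSK4 3.73 and 3.59. The TLR2.CD86 arrays were the lowest, and the groups with anti-CD40 overlapped the unstimulated ones. The fall after TLR2.CD86 was -0.65 ± 0.13 (limma, adjusted p = 0.0233), and the departure from additivity was 0.22 ± 0.18 (limma, adjusted p = 0.972). With the slide block it was also called lower after Pam2CSK4 (-0.37 ± 0.09) and anti-CD86 (-0.38 ± 0.09). So the rise of the gene after TLR2.CD86 rested on 1 of its 3 probes, another fell, and the third differed by 0.04 ± 0.19.

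**Figure D1:**
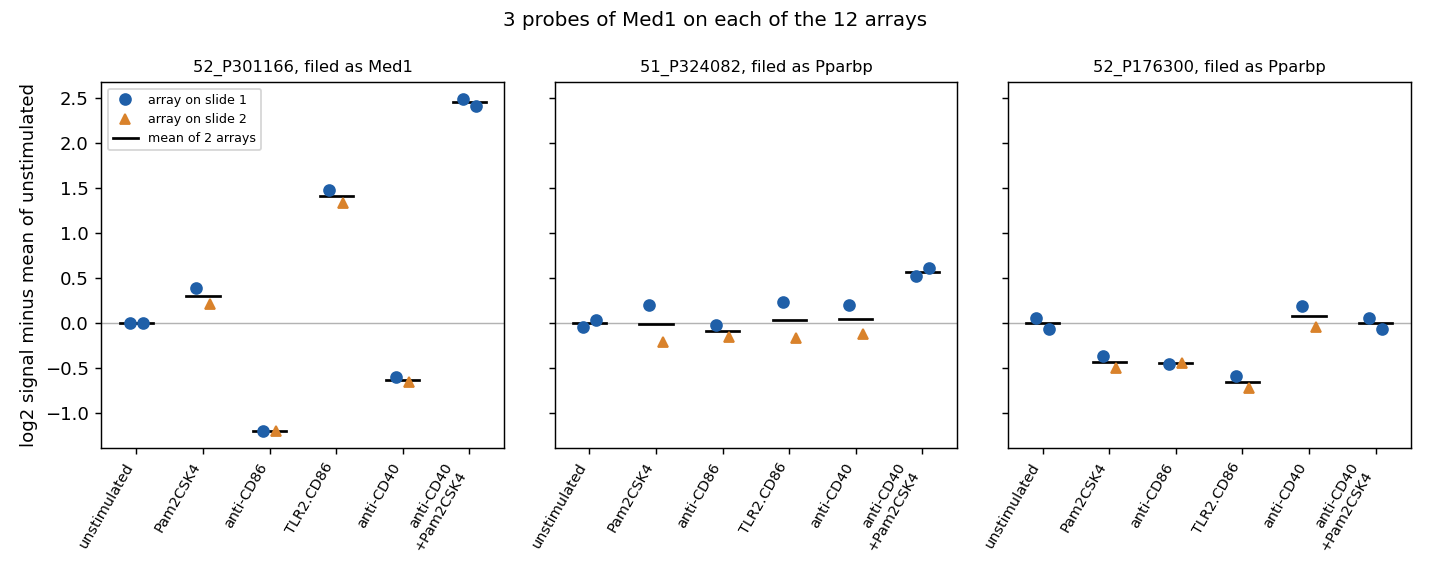
The 3 probes of Med1, 1 panel each, with the 6 conditions on the x axis and the log2 signal minus the mean of the unstimulated arrays on the y axis. Circles are arrays on slide 1, triangles arrays on slide 2, and bars the means of 2 arrays. The probe filed as Med1 spans -1.19 to 2.46, while the Pparbp probes stay between -0.09 and 0.57 and between -0.65 and 0.08.

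The other members ranged less widely over the conditions than Med1. The range of the 6 condition means was 3.65 for the Med1 probe, against a median of 0.51 over the other 41 tested member probes, and a median of 0.68 over all probes tested. Only 2 of these 41 (4.88%) ranged over more than 1, beside 23.2% of all probes. They were a dim probe of Med14 (1.38), well above background on 10 arrays and resting on 1 low Pam2CSK4 array, and Cdk8 52_P504068 (1.17). Members and all probes were not matched for signal level, and the part of signal level in these ranges was not tested. Since the probe filed as Med1 carries no test, the counts that follow leave it out. The limma F test over the 6 conditions called 5 of these 41 member probes (12.2%), beside 20.1% of all probes: Med14, Med17, Med30, Ccnc and Cdk8. Over the 7 comparisons described below, 19 of the 30 tested genes, Med1 included in the 30, had no probe called (63.3%), beside 68.2% of the 25210 gene names tested. Over the fits with and without the slide block, 7 genes (23.3%, beside 31.6%) had no probe called in any of the 7: Med6, Med8, Med13l (by its own name), Med16, Med20, Med28 and Med29. Their condition means ranged over 0.31 to 0.51.

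Pam2CSK4 alone called no member at an adjusted p under 0.05 (0 of 41, beside 0.133% of all probes, limma), although 9 had an unadjusted p under 0.05. The median difference over all 42 members was -0.19, beside -0.07 over all probes. It was -0.29 without replicate 1 of Pam2CSK4, -0.09 without replicate 2, and -0.09 with the slide block, beside -0.04 over all probes. The slide block brought the count to 6 (14.6%, beside 10.9%). The lower ones were Med17 (-0.44 ± 0.08), Med19 (-0.32 ± 0.07), Med21 (-0.29 ± 0.06), Med14 (-0.28 ± 0.06) and Med7 (-0.24 ± 0.06), of the head, middle and scaffold. The higher one was Med12 51_P435947 (0.30 ± 0.06). On slide 1 alone, no member and no probe at all was called, and 14 members had an unadjusted p under 0.05. Here and below, the share of all probes at an unadjusted p under 0.05 was not counted. Counts of members at that level thus say nothing particular of the complex.

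Anti-CD86 alone called none of the 41 (beside 2.07% of all probes, limma), and 10 had an unadjusted p under 0.05. The slide block brought 12 calls (29.3%, beside 28.5%). The lowest were Med9 (-0.65 ± 0.12) and Med30 (-0.45 ± 0.05). The highest were Med12 51_P435947 (0.68 ± 0.06), Med18 52_P413257 (0.58 ± 0.10), Cdk8 51_P250963 (0.39 ± 0.07) and Med13 52_P665326 (0.39 ± 0.10). Without the block, other probes went the other way, none of them called: Med12 52_P197666 (-0.25), and Med13 52_P194929 (-0.21) and 52_P561886 (-0.24). The remaining Med13 probe, 52_P515826, read -2.49 and -2.54 unstimulated, then -2.48 and -2.41. On slide 1 alone no member was called, beside 4 probes in all (0.0127%), and 16 members had an unadjusted p under 0.05.

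TLR2.CD86 against unstimulated called 5 of the 41 (12.2%, beside 10.7% of all probes), of which 1 was higher (beside 3.38% of all probes) and 4 lower (beside 7.28%). Centring each array on its median instead turned the split of all calls from 31.7% to 62.9% higher and called no member, with every difference of these 5 keeping its sign. No share of all probes is given beside that count, so it shows a dependence on scaling and says nothing particular of the complex. In the head module, Med17, which contacts the polymerase, read 1.43 and 1.38 on the unstimulated arrays and 0.56 and 0.72 after TLR2.CD86, with no overlap. It fell by 0.77 on the log2 scale (SE 0.11, limma, adjusted p = 0.0111). Med30, a head subunit of metazoans, went from 1.95 and 1.95 to 1.42 and 1.24, a difference of -0.62 ± 0.12 (limma, adjusted p = 0.0234). In the middle module, Med7 read 3.08 and 3.06, then 2.66 and 2.65, a difference of -0.42 ± 0.11 (limma, adjusted p = 0.0442). Med14, the scaffold, fell on 51_P100181, from 0.45 and 0.42 to -0.17 and -0.42 (-0.73 ± 0.15, limma, adjusted p = 0.0267). Its probe 52_P406371 read 2.00 and 1.88, then 1.60 and 1.24, and was called with the slide block (-0.39 ± 0.10, limma, adjusted p = 0.0237).

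The higher one was a probe of Med12, the subunit that activates the Cdk8 kinase. Med12 51_P435947 read -0.01 and -0.03 on the unstimulated arrays, 0.25 and -0.01 after Pam2CSK4, 0.66 and 0.35 after anti-CD86, and 1.04 and 0.60 after TLR2.CD86. TLR2.CD86 lay 0.85 ± 0.19 above unstimulated (limma, adjusted p = 0.0308), and the departure from additivity was 0.18 ± 0.26 (limma, adjusted p = 0.972). The other probe of the gene, 52_P197666, read 4.13 and 4.07, then 4.27 and 3.80, a difference of -0.06 ± 0.27 (limma, adjusted p = 0.914), and its groups overlapped. So Med12 rose on 1 of 2 probes. With the slide block, 51_P435947 was called higher in all 5 stimulated conditions, by 0.30 to 1.00, and 52_P197666 in none.

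In the fit with the slide block, 16 of the 41 were called after TLR2.CD86 (39%, beside 35.1% of all probes). The extremes were Med17 (-0.79 ± 0.08), Med30 (-0.54 ± 0.05) and Med9 (-0.53 ± 0.12) on the low side, with Med14 51_P100181 (-0.61 ± 0.06) among them. On the high side stood Med12 51_P435947 (1.00 ± 0.06) and Cdk8 52_P504068 (0.59 ± 0.10). Without the block, the other Cdk8 probe, 51_P250963, differed by -0.08, beside 0.51 for 52_P504068. The count was 7 on slide 1 alone (17.1%, beside 19.8%). A share of members close to that of all probes says nothing particular of the complex.

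**Figure D2:**
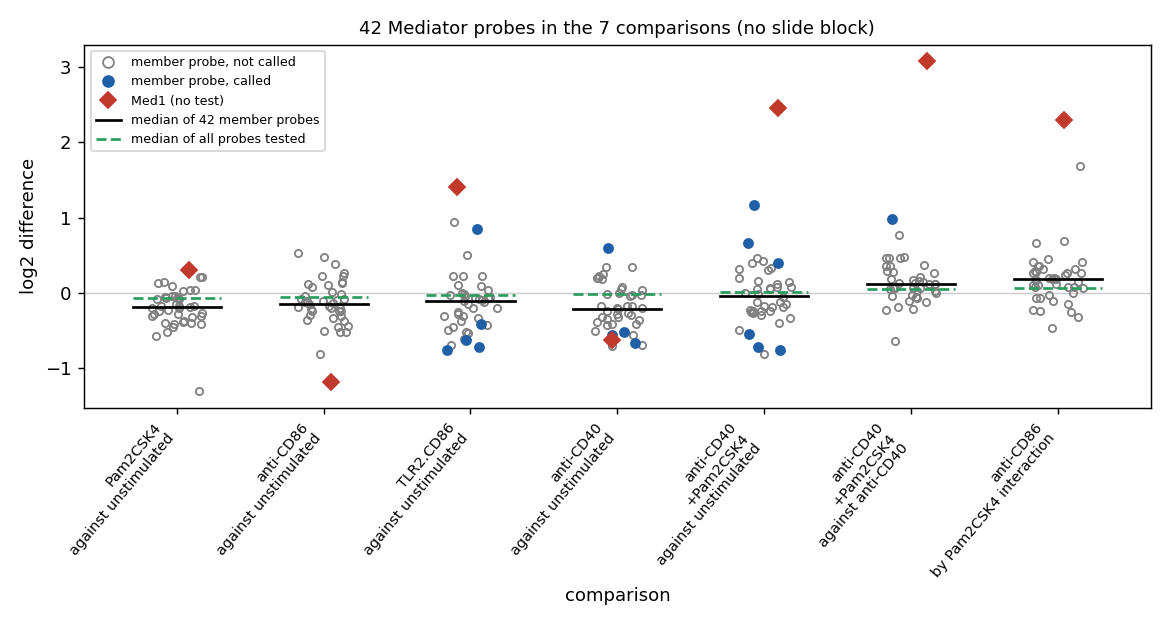
The log2 differences of the 42 tested member probes (y axis) in the 7 comparisons (x axis), fitted without a slide block. Filled circles were called at an adjusted p under 0.05 and open circles were not. Diamonds are the probe filed as Med1, which was given no test. Solid bars are the medians of the members and dashed bars those of all probes. The probe filed as Med1 lies at 1.41, 2.46, 3.08 and 2.30 in the comparisons in which Pam2CSK4 joined an antibody. The medians of the members lie between -0.21 and 0.18.

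In the anti-CD86 by Pam2CSK4 interaction, none of the 41 was called (beside 0.019% of all probes, limma), and 1, Med9 (0.69 ± 0.30), had an unadjusted p under 0.05. Their departures ran from -0.47 to 1.69 with a median over all 42 of 0.18, beside 0.06 over all probes. That median was 0.05 without replicate 1 of TLR2.CD86, 0.27 without replicate 1 of Pam2CSK4, and 0.07 with the slide block, beside 0.04 over all probes. The value of 1.69 ± 0.87 (limma, adjusted p = 0.972) belonged to the dim Med14 probe 52_P184130, which read -3.26 and -5.57 after Pam2CSK4. The other 2 Med14 probes departed by 0.00 ± 0.21 and 0.07 ± 0.25. The 9 probes under older symbols added no call. With the slide block the count was again 0 (beside 0.228%), with 9 members at an unadjusted p under 0.05, and on slide 1 alone it was 0 (beside 0%), with 7.

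Anti-CD40 alone called 4 of the 41 (9.76%, beside 16.8% of all probes), 1 higher (beside 6.09%) and 3 lower (beside 10.7%). Med14 was lower on both well-measured probes. Its 52_P406371 read 2.00 and 1.88 unstimulated and 1.48 and 1.08 after anti-CD40 (-0.66 ± 0.18, limma, adjusted p = 0.0387). Its 51_P100181 read 0.45 and 0.42, then 0.02 and -0.29 (-0.57 ± 0.15, limma, adjusted p = 0.0381). Med15, the tail subunit that binds activators, read 1.20 and 1.22, then 0.80 and 0.59 (-0.52 ± 0.14, limma, adjusted p = 0.0383). Med18, a head subunit, was higher on 52_P413257, from -1.28 and -1.45 to -0.68 and -0.86 (0.59 ± 0.16, limma, adjusted p = 0.0391). The slide block raised the count to 17 (41.5%, beside 37.4%). The lowest genes were Med9 (-0.54 ± 0.12) and Med14 52_P406371 (-0.53 ± 0.10), and the highest were Med18 52_P413257 (0.70 ± 0.10), Med12 51_P435947 (0.49 ± 0.06) and Med26 (0.34 ± 0.06), with Med11 beside it (0.34 ± 0.07). The count was 11 on slide 1 alone (26.8%, beside 22.9%).

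Anti-CD40+Pam2CSK4 against unstimulated is the comparison held wholly within 1 slide, and it called 6 of the 41 (14.6%, beside 18.1% of all probes), 3 higher (beside 8.46%) and 3 lower (beside 9.65%). Cdk8, the kinase of the module, rose on 52_P504068, from 0.11 and 0.22 to 1.20 and 1.46 (1.17 ± 0.15, limma, adjusted p = 0.00186). On 51_P250963 it read 0.75 and 0.79, then 1.09 and 1.08 (0.31 ± 0.16, limma, adjusted p = 0.208), with no overlap. Both Cdk8 probes were thus higher, by unequal amounts. Med11, a head subunit, read 3.02 and 3.07, then 3.75 and 3.68 (0.67 ± 0.17, limma, adjusted p = 0.0324). Med18 rose on 51_P141104, from -0.68 and -0.68 to -0.26 and -0.30 (0.40 ± 0.11, limma, adjusted p = 0.0436).

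Cyclin C, the partner that Cdk8 needs for activity, went the opposite way to Cdk8. Ccnc 51_P279363 read 0.41 and 0.48 on the unstimulated arrays and -0.13 and -0.09 after anti-CD40+Pam2CSK4 (-0.56 ± 0.16, limma, adjusted p = 0.0441). After anti-CD40 alone it read 0.08 and -0.21 (-0.51 ± 0.16, limma, adjusted p = 0.0595). Its second probe was well above background on 8 arrays and gave -0.15 ± 0.53. Med14 was lower on 51_P100181, at -0.33 and -0.32 (-0.76 ± 0.15, limma, adjusted p = 0.0112), and on 52_P406371, at 1.29 and 1.16 (-0.72 ± 0.18, limma, adjusted p = 0.0261).

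The same comparison called 20 members with the slide block (48.8%, beside 47.5% of all probes), and slide 1 alone also called 20 (48.8%, beside 40.3%). The lowest genes with the block were Med22 52_P17194 (-0.81 ± 0.23), Med14 51_P100181 (-0.76 ± 0.05) and Ccnc 51_P279363 (-0.56 ± 0.05). The highest were Cdk8 52_P504068 (1.17 ± 0.10) and Med11 (0.67 ± 0.06). On these 2 arrays the summed level of liver markers (5 of 6 on the array, Alb and Fgb among them) was -1.04 and -0.73, beside 1.93 to 2.81 on the other 10. The part of that difference in the results was not tested.

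When Pam2CSK4 was added to anti-CD40, 1 of the 41 was called (2.44%, beside 2.89% of all probes), Cdk8 52_P504068. Cdk8 went from 0.49 and 0.22 after anti-CD40 to 1.20 and 1.46 (0.98 ± 0.15, limma, adjusted p = 0.0133). On 51_P250963 it went from 1.15 and 0.77 to 1.09 and 1.08 (0.13 ± 0.16, limma, adjusted p = 0.69), with overlap. With the slide block 6 were called (14.6%, beside 15.3%), and Med15 (0.36 ± 0.06), Med4 (0.33 ± 0.07) and Med11 (0.32 ± 0.07) were higher too, while Med25 51_P392861 (-0.32 ± 0.07) and Med14 51_P100181 (-0.31 ± 0.06) were lower. On slide 1 alone the count was 0 (beside 1.97%), with 10 at an unadjusted p under 0.05.

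**Figure D3:**
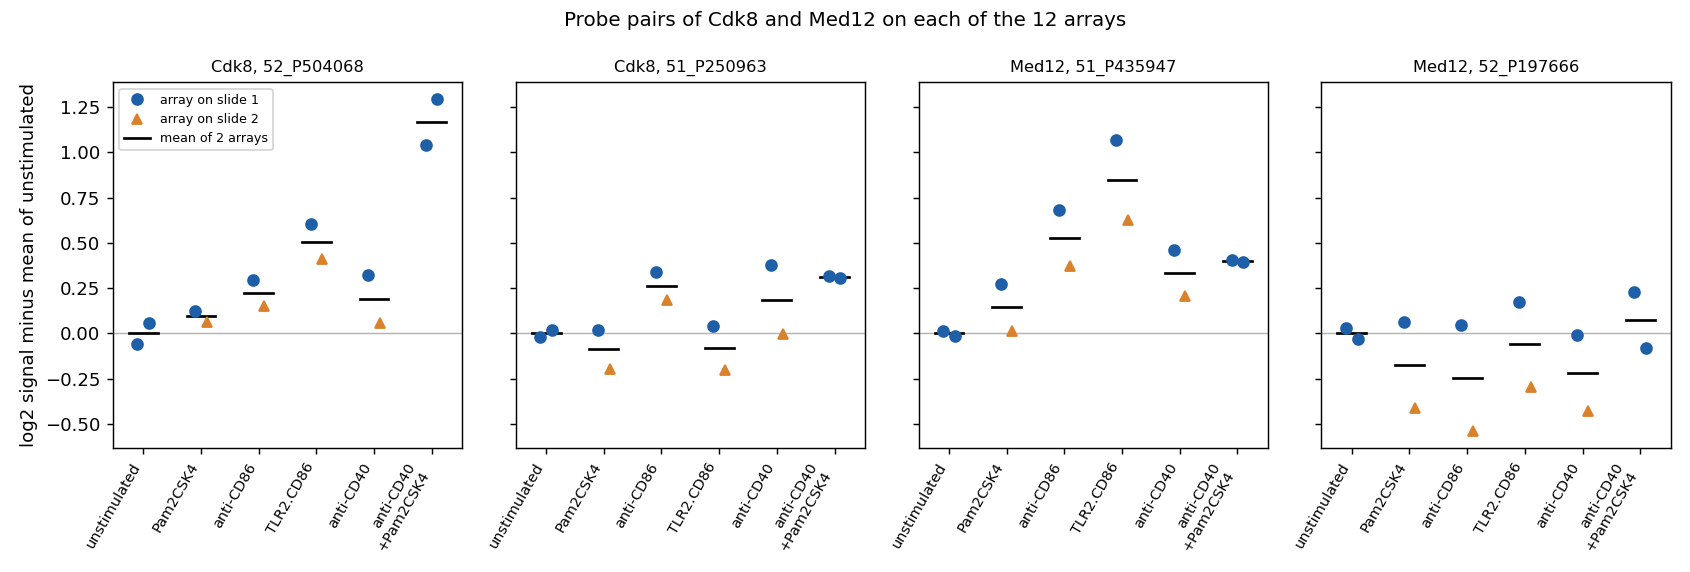
The probe pairs of Cdk8 and Med12, 1 panel a probe, with the 6 conditions on the x axis and the log2 signal minus the mean of the unstimulated arrays on the y axis. Circles are arrays on slide 1, triangles arrays on slide 2, and bars the means of 2 arrays. Cdk8 52_P504068 reaches 1.17 after anti-CD40+Pam2CSK4 where 51_P250963 reaches 0.31, and Med12 51_P435947 reaches 0.85 after TLR2.CD86 where 52_P197666 is at -0.06.

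The rest of the kinase module was measured as follows. Cdk19, the paralog of Cdk8, had 1 probe under its older symbol Cdc2l6. It read 3.27 and 3.21 unstimulated, 2.63 and 2.31 after anti-CD40, and 2.50 and 2.49 after anti-CD40+Pam2CSK4, with no overlap. It fell in both, by 0.77 (SE 0.20, limma, adjusted p = 0.0342) and by 0.75 on the log2 scale (SE 0.20, limma, adjusted p = 0.0334). So the kinase paralogs differed from unstimulated in opposite directions after anti-CD40+Pam2CSK4. Med13, which links the kinase module to the core complex, had 4 tested probes, and none was called in any of the 7 comparisons without the slide block. The probe with its highest mean signal, 52_P194929, read 2.84 and 2.81 unstimulated and 2.48 and 2.31 after TLR2.CD86 (-0.43 ± 0.13, limma, adjusted p = 0.0717). Probe 52_P515826 stood apart on a single TLR2.CD86 array, at -0.54 where the other 11 arrays read -2.62 to -2.14.

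Med13l, the paralog of Med13, had 2 tested probes that parted. The probe under its own name, 52_P41175, read 5.57 and 5.50 unstimulated and 5.36 and 5.30 after TLR2.CD86 (-0.21 ± 0.12, limma, adjusted p = 0.27). The probe under Thrap2, 51_P457358, read -1.27 and -1.19, then -0.24 and -0.63 (0.80 ± 0.23, limma, adjusted p = 0.0609), and was called with the slide block (1.00 ± 0.07, limma, adjusted p = 0.000757). It was also called with the block after anti-CD86 (0.57 ± 0.07), anti-CD40 (0.76 ± 0.07) and anti-CD40+Pam2CSK4 (0.75 ± 0.07). Med12l was not well above background on any array by any of its 3 probes.

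Among the 15 Mediator genes with more than 1 tested probe, older symbols included, 8 had a pair that went opposite ways in some comparison, with either probe called or more than 0.5 between them: Med1, Med12, Med13, Med13l, Cdk8, Med14, Med22 and Med25. The overlapping pair of Med20 was not among them. After TLR2.CD86 it gave 0.09 ± 0.19 and 0.17 ± 0.11, and after anti-CD40+Pam2CSK4 0.15 ± 0.19 and 0.11 ± 0.11, on the probes 52_P402319 and 51_P404067.

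**Figure D4:**
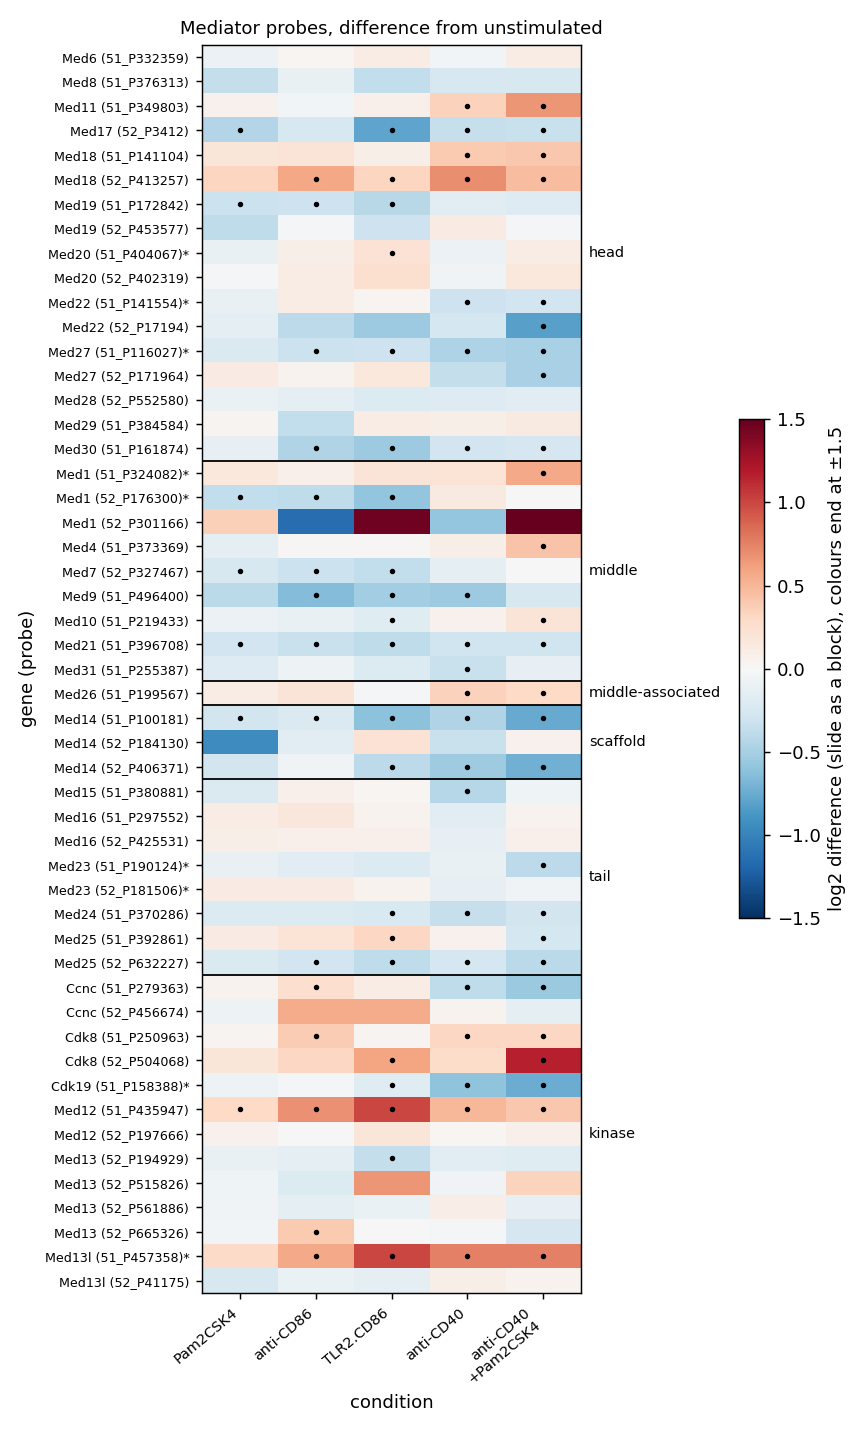
Mediator probes by module: each row is a tested probe, ordered by module, each column a condition, and the colour the log2 difference from unstimulated in the fit with the slide block. Dots mark an adjusted p under 0.05, except on the probe filed as Med1 (52_P301166), which was given no test, and asterisks mark probes under older symbols. Med17, Med21 and Med30 are blue in all 5 conditions, and within the kinase module Cdk8 is red where Cdk19 and Ccnc are blue after anti-CD40+Pam2CSK4.

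Across the modules, some subunits were called in the same direction in 4 or 5 of the 5 stimulated conditions, all in the fit with the slide block. There, Med21 of the middle module, which forms a hinge with Med7, was called lower in all 5, by 0.29 (SE 0.06) after Pam2CSK4 up to 0.38 (SE 0.06) on the log2 scale after TLR2.CD86. Med14 51_P100181 was also called lower in all 5, from -0.22 ± 0.06 after anti-CD86 to -0.76 ± 0.05 after anti-CD40+Pam2CSK4. Med30, Med17 and Med25 52_P632227 were each called lower in 4. Without the block, the other Med25 probe, 51_P392861, went the opposite way after anti-CD86 (0.12 against -0.45) and TLR2.CD86 (0.22 against -0.54). After anti-CD40+Pam2CSK4 that probe was lower too, at -0.07 and 0.04 beside 0.22 and 0.27 unstimulated. Med18 52_P413257 was called higher in 4, from 0.32 ± 0.10 after TLR2.CD86 to 0.70 ± 0.10 after anti-CD40. Of the 42 member probes 2 (4.76%) were called lower in all 5 and 5 (11.9%) in at least 4, beside 2.77% and 8.46% of all probes, and 1 (2.38%) was called higher in all 5 and 2 (4.76%) in at least 4, beside 1.99% and 5.56%. Without the slide block Med21 had no call in any comparison. These comparisons share the unstimulated arrays, so they are not separate evidence of a direction. Med9, which lies next to Med4 and Med7 in the middle module, read 2.12 and 2.34 on the unstimulated arrays, 1.81 and 1.51 after Pam2CSK4, 1.59 and 1.24 after anti-CD86, 1.74 and 1.34 after TLR2.CD86, 1.65 and 1.39 after anti-CD40, and 2.14 and 1.85 after anti-CD40+Pam2CSK4. The unstimulated arrays lay above the first 4 of these conditions and overlapped the last. In the tail module, Med16 and Med23 had no call in the fit without the slide block, and Med24, which forms a submodule with them, was called lower with the block after TLR2.CD86 (-0.23 ± 0.07), anti-CD40 (-0.34 ± 0.07) and anti-CD40+Pam2CSK4 (-0.27 ± 0.06).

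The slide moved with the results. In the 4 conditions with 1 array on each slide, 30 of 42 members (71.4%) were lower on slide 2 in all 4 and 0 were higher, while of all probes 45.6% were lower and 20.3% higher in all 4. The median difference, slide 2 minus slide 1, was -0.21 for members and -0.13 for all probes. Member medians moved accordingly, for example from -0.11 to 0.01 for TLR2.CD86 and from 0.12 to 0.01 for anti-CD40+Pam2CSK4 against anti-CD40, when slide was a term. The count of the limma F test rose from 5 to 27 of 41 with it (65.9%, beside 60% of all probes), and it was 13 on slide 1 alone (31.7%, beside 33.3%).

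The machinery that Mediator works with is given for comparison, from limma without the slide block unless stated. Beside its counts stand the shares of all probes, which were 3.38% higher and 7.28% lower after TLR2.CD86 and 6.09% and 10.7% after anti-CD40, and with the slide block 14.6% and 20.5% after TLR2.CD86 and 15.6% and 21.7% after anti-CD40. After TLR2.CD86 the subunits of RNA polymerase II had 1 of 14 tested probes called, Polr2d (-0.72 ± 0.15), and the median of the 14 was -0.38, beside -0.03 over all probes. With the slide block 1 was higher and 6 lower. After anti-CD40 they had 2, Polr2g (-0.90 ± 0.16) and Polr2i (-0.76 ± 0.18). Of 53 probes of general transcription factors, which place the polymerase at the start site, 4 were higher and 7 lower after TLR2.CD86, and with the slide block 7 and 23. Taf2 (1.05 ± 0.21) and Taf6 (0.96 ± 0.19) of TFIID were among the higher, and both called probes of Gtf2a1, a subunit of TFIIA, were lower (-0.70 ± 0.13 and -0.51 ± 0.12). Of 23 probes of pause release factors, 0 were called after TLR2.CD86 and 3 after anti-CD40, the elongation factors Ell3 (-0.98 ± 0.13), Aff1 (-0.86 ± 0.12) and Aff4 (-0.57 ± 0.12). With the slide block 1 was higher and 3 lower after TLR2.CD86, and 1 higher and 6 lower after anti-CD40.

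Of 37 probes of nuclear receptors, Gata factors and coactivators known as partners of MED1, 1 was higher and 3 lower after TLR2.CD86, and with the slide block 11 and 9. Without the block they were Ncoa3 (0.66 ± 0.16), and Nr3c1, the glucocorticoid receptor (-0.70 ± 0.14), Rxra, the retinoid X receptor (-0.69 ± 0.11), and Ncoa2 (-0.40 ± 0.10). After anti-CD40, 10 were lower and 0 higher (15 and 0 with the slide block), among them 2 probes of the coactivator Ppargc1a (-1.42 ± 0.13 and -1.64 ± 0.43) and 2 of the thyroid hormone receptor Thra (-1.18 ± 0.16 and -0.86 ± 0.19). The 37 probes covered 21 genes, and the 10 lower ones were all of Gata2, Ncoa6, Nr3c1, Ppargc1a and Thra. Some genes thus count more than once.

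Promoter sequence was read from RefSeq (GRCm38.p6) in windows from 250 bases before to 50 after the start, which the table held for 28 of the 33 Mediator genes with a probe. Searched on both strands, the ETS motif CCGGAAG was in 8 of these 28 genes (28.6%), beside 12.9% of 17492 protein-coding genes. They were Med4, Med6, Med10, Med14, Med15, Med17, Med18 and Med19. The GC box GGGCGG was in 67.9% beside 49.2%, the CCAAT box CCAAT in 39.3% beside 42.3%, and TATAAA in 10.7% beside 14.8%. These are descriptions of the letters in the window, and Med1 held the GC box and the CCAAT box.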

How the data were processed

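Total RNA of RB cells was labelled with Cy3 from an oligo-dT primer and hybridised to 12 arrays, 2 in each of 6 conditions. Per the file headers, the authors extracted each array with Agilent Feature Extraction 10.5.1.1, and the deposited processed signal is an intensity, background-subtracted and spatially detrended within the array. The authors' deposited log2 table matched it, less 1 constant an array. Here log2 processed signals minus the array's 75th percentile were used, control and outlier spots were left out, and spots of a probe were averaged. Probes had to be well above background on both arrays of a condition. A linear model with 1 term a condition over all 12 arrays, with no block, was fitted with limma 3.58.1 in R 4.3.3 (eBayes), with Benjamini-Hochberg adjustment over 31599 probes and a threshold of 0.05. The scripts were tested on simulated data. Precision is limited by 2 arrays a condition.

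The members and lists were chosen with earlier results of these data known. Named were Med1, the kinase module, genes called in any comparison, and the 3 highest and 3 lowest called genes with the slide as a block. A gene is given by its brightest tested probe and by any other that was called or discordant. Alternatives were other scalings and filters, normexp with an offset of 50, the authors' table, the slide or the replicate number as a block, slide 1 alone, and leaving out each array.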

Additional observations from a re-analysis of the deposited data

Results flagged for a closer look

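The effect of Pam2CSK4 on the Med1 probe 52_P301166 differed with and without anti-CD86. It was 0.31 without and 2.61 with the antibody, a difference of 2.30 on the log2 scale, and both TLR2.CD86 arrays lay above all other arrays of the 4 groups involved. The probe had been singled out on this contrast, so the value carries no test here, and the position of the TLR2.CD86 arrays adds no support to it. The Pparbp probes of the same gene gave 0.12 and 0.22.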

How the results depend on the processing

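Leaving out single arrays and changing the scale or the filter changed how many of the 42 member probes, Med1 included, were called. Shares of all probes stand above only for the fit without a block, the slide block and slide 1 alone. The other counts have none beside them, so they show how calls depend on the processing and say nothing particular of the complex. Without a slide or replicate block the counts were 0 for Pam2CSK4, 1 for anti-CD86, 6 for TLR2.CD86, 5 for anti-CD40 and 7 for anti-CD40+Pam2CSK4, each against unstimulated, 2 for anti-CD40+Pam2CSK4 against anti-CD40, 1 for the interaction and 6 for the F test. The probe filed as Med1 carries no test, and without it these counts were 0, 0, 5, 4, 6, 1, 0 and 5, in the same order. The 1 for anti-CD86 and the 1 for the interaction were thus the Med1 probe itself. It was picked out on these values, so no count that includes it, here or below, is evidence of a change in it. With median normalization the counts, Med1 again included, were 0 for anti-CD86, TLR2.CD86, anti-CD40 and the interaction and 1 for anti-CD40+Pam2CSK4 (against unstimulated and against anti-CD40) and for the F test. Median normalization moved the median of all probes by -0.20, -0.14, -0.29, -0.57 and -0.11 in the comparisons against unstimulated, in that order, and by 0.46 for anti-CD40+Pam2CSK4 against anti-CD40. Quantile normalization gave 2 for anti-CD86, 9 for anti-CD40 and 13 for the F test. Background correction by normexp gave 3 for anti-CD86, 10 for TLR2.CD86, 8 for anti-CD40 and 11 for the F test. With no filter on dim probes the counts were 0 for anti-CD86, anti-CD40 and the interaction, 1 for TLR2.CD86, for anti-CD40+Pam2CSK4 against anti-CD40 and for the F test, and 2 for anti-CD40+Pam2CSK4 against unstimulated. A filter on all 12 arrays gave 2 for anti-CD86 and 8 for anti-CD40.

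With the slide as a block the counts were 7 for Pam2CSK4, 13 for anti-CD86, 17 for TLR2.CD86, 18 for anti-CD40, 21 for anti-CD40+Pam2CSK4, 7 for the latter against anti-CD40 and 28 for the F test. On slide 1 alone they were 0 for anti-CD86 and the interaction, 12 for anti-CD40, 21 for anti-CD40+Pam2CSK4, 1 for it against anti-CD40 and 14 for the F test. Whether the replicate numbers pair the samples could not be settled. The correlation of same-numbered deviations ran from -0.11 to 0.67 over 15 pairs of groups, but in 4 conditions the number goes with the slide. Between unstimulated and anti-CD40+Pam2CSK4, both held on slide 1, it was 0.07. A replicate block gave 7 for anti-CD86, 14 for TLR2.CD86, 14 for anti-CD40, 12 for anti-CD40+Pam2CSK4, 2 for it against anti-CD40, 1 for the interaction and 16 for the F test. Leaving out 1 array gave 0 to 1 for anti-CD86, 1 to 4 for TLR2.CD86, 0 to 7 for anti-CD40, 2 for anti-CD40+Pam2CSK4, 1 to 2 for it against anti-CD40, 0 to 2 for the interaction and 1 to 9 for the F test. Other alternatives, the authors' table among them, and adding the 9 probes under older symbols, chosen after the data were seen, stayed within 1.5 times.

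The departure from additivity of the probe filed as Med1 was 1.84 with normexp and 2.21 to 2.39 when 1 array was left out, beside 2.30. Of 16 calls on single probes other than that of Med1, none changed direction under the alternatives run. All 16 passed the threshold with the authors' table, the slide block, the replicate block and the filter on all 12 arrays, 14 with quantile normalization and on slide 1 alone, 13 with normexp, 1 with no filter and 0 with median normalization. They passed in 12 of 64 fits that left out 1 array, in which the condition cut to 1 array is assumed to vary like the others. Differences moved little in some of the lost calls, such as Ccnc (-0.59 to -0.52) and Med11 (0.63 to 0.70) after anti-CD40+Pam2CSK4 and Med7 after TLR2.CD86 (-0.43 to -0.41), and more in others, such as Med12 51_P435947 after TLR2.CD86 (0.63 to 1.07). Cdk8 52_P504068 after anti-CD40+Pam2CSK4 passed in all 4 of its own.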
